A study of Mus musculus with 8 samples.

Results

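In cerebellar granule neuron progenitors (GNPs), 935 autosomal regions of open chromatin kept a peak in Chd7 mutant cells but at a much lower height than in wild-type (WT) cells. These regions, called mutant-low regions here, were selected on WT and mutant pileup, the number of sequenced fragments stacked at a peak's summit. A WT peak was eligible if it lay on an autosome, had a pileup of 20 or more and overlapped a mutant peak by at least 1 bp, and where several mutant peaks overlapped it, the one with the highest pileup was taken. Of 152984 WT peaks, 149637 were autosomal, 60420 of these were tall enough and 59316 had a mutant partner. A region was taken when its WT pileup per tag was at least 7/4 times its mutant pileup per tag, so that the mutant stood at 57.1% of WT or less. The 935 regions were 1.58% of eligible peaks, and each had its own mutant partner. The same rule turned around, with the mutant at least 7/4 times WT, took 361 peaks, 0.609% of the same eligible peaks. For this reversed rule the floor of 20 stayed on WT and the tallest mutant partner was still taken. Mutant pileups therefore began at 36 in the reversed set and at 7 in the 935 regions. The counts are for that reason not a matched comparison of loss and gain. Since pileup in both lists chose the regions, their heights, ratios and widths are given as a description without a test.

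The data were ATAC-seq, in which the transposase Tn5 cuts and tags open DNA, on GNPs of postnatal day 7 mice. WT cells were Chd7 f/f without Cre (3 libraries), mutant cells were Atoh1-Cre::Chd7 f/f (3 libraries) and het cells were Atoh1-Cre::Chd7 f/+ (2 libraries), so every group carried at least 1 floxed Chd7 allele and the Cre was carried by the mutant and het groups alone. The labels give the strain as C56Bl6/J. Atoh1-Cre acts in the rhombic lip lineage that forms granule neurons, recombination was less complete in the posterior lobe per the study, pups were not separated by sex, and the WT and mutant replicates were technical. Libraries were pooled within each genotype before peaks were called, so the lists used here hold 1 value per genotype for each region, and no difference is set against the spread between libraries or mice.

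Chd7 is an ATP-dependent chromatin remodelling enzyme that moves nucleosomes, and loss of 1 copy in people causes CHARGE syndrome. Remodellers of this family are found at distal enhancers, stretches of DNA far from gene starts where transcription factors bind and open the chromatin. In the granule lineage many such enhancers carry E-boxes, short sites bound by basic helix-loop-helix factors such as Atoh1, which keeps progenitors in their proliferating state, and Neurod1, which acts in neuronal differentiation. Different E-box centres are preferred by different factors of this family.

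Examples of the DNA at these regions are printed because the E-box content described further on can be read in them directly. Each line holds the 300 bases of the mm10 (GRCm38) plus strand centred on the WT summit, read from the RefSeq copy of that assembly, and capitals mark E-boxes on either strand. The E-boxes marked have the form CAGATG, the form CATATG or the form CAGCTG, and the first reads CATCTG when it lies on the minus strand. The first pair are the regions with the highest ratio, followed by the tallest region, the 2 tallest among genes that the study lists as Chd7-dependent, and the tallest near the start of a protein-coding gene. They lie at chr8:50180726-50181025 (intron of the long non-coding gene Gm45341), chr13:3258463-3258762 (intergenic), chr15:48618676-48618975 (intron of Csmd3), chr16:52280238-52280537 (intron of Alcam), chr1:173369664-173369963 (intron of Aim2, 2.12 kb from the start of Cadm3) and chr13:59534372-59534671 (0.450 kb from the start of Agtpbp1). Of the 8 windows read by the same choice, 5 hold CAGATG, 2 hold CATATG, 1 holds CAGCTG and 1, at the start of Cdkn1a, holds none of them. The windows at Cdkn1a and A330069K06Rik are not printed.
Gm45341 intron: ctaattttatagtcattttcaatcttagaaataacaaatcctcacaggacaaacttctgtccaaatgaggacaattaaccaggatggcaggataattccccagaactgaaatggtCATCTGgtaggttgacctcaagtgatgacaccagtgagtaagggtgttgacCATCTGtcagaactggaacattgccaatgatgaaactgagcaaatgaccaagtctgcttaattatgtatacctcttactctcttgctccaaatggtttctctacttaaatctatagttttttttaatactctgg
chromosome 13 intergenic: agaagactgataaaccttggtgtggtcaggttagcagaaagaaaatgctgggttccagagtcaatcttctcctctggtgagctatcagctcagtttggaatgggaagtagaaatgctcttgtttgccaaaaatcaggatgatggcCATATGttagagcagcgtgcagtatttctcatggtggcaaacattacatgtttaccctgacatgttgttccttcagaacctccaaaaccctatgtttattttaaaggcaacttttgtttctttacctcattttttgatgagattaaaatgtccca
Csmd3 intron: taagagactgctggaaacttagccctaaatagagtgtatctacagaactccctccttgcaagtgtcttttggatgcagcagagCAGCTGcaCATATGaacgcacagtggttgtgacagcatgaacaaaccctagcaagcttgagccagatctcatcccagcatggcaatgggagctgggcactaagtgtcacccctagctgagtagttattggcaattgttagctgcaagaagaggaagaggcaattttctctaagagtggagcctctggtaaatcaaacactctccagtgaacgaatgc
Alcam intron: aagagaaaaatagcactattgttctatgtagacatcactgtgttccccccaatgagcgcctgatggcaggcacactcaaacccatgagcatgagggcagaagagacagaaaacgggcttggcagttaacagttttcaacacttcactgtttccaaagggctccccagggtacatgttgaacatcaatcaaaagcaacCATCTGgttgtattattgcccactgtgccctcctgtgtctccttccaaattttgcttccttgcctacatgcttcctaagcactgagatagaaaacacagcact
Aim2 intron near Cadm3: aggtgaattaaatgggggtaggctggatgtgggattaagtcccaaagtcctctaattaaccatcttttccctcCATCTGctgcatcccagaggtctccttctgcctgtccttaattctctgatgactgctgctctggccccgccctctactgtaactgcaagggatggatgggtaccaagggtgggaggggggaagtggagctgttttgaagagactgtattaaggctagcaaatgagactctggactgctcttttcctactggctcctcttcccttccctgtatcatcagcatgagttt
Agtpbp1 start: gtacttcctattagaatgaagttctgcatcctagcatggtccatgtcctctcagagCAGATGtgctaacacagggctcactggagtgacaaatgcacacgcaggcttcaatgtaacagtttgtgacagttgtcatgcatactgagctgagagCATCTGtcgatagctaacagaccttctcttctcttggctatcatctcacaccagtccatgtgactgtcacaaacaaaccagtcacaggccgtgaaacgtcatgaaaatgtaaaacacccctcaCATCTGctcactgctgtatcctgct

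WT and mutant tags after filtering numbered 50394313 and 51030229, so raw pileups of these groups can be compared almost directly, while het had 30923002. The het list was made from another alignment, with reads shifted by -100 bp and extended to 200 bp, and its pileups are not on the WT and mutant scale. Tag size was 107 bp in WT and 76 bp in mutant. All 4 Y-linked genes examined (Ddx3y, Uty, Eif2s3y and Kdm5d) had a promoter peak in WT and 0 of 4 had one in mutant or het, so the pools differed in Y-linked signal. All mutant-low regions are autosomal, and the part of sex and of tag size in their values was not tested. Promoter peaks were present at 11, 12 and 11 of 12 progenitor markers in WT, mutant and het, and at 0 of 6 erythroid markers in each. All 10 Bergmann glia and astrocyte, all 7 endothelium and pericyte and all 6 meninges markers also had one in each list. In WT, so did 8 of 9 Purkinje cell, 5 of 8 oligodendrocyte lineage and 3 of 7 microglia markers. The presence of promoter peaks therefore does not show which cell types were in the pools. The summed promoter pileup per 1000000 tags was 12.6 in WT and 13.7 in mutant for progenitor markers, 7.48 and 7.37 for Purkinje cell markers and 6.98 and 7.54 for Bergmann glia and astrocyte markers.

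Mutant-low regions were of modest height in WT. WT pileup ranged from 20 to 92 with a median of 27, against a median of 32 over all eligible peaks. Mutant pileup ranged from 7 to 53 with a median of 14, against 34. The WT to mutant ratio of pileup per tag ran from 1.753 to 3.96 with a median of 1.93, while the median of all eligible peaks was 0.986. Most of the regions therefore lay close to the edge of the rule, as seen in the plot of WT against mutant pileup.

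**Figure D1:**
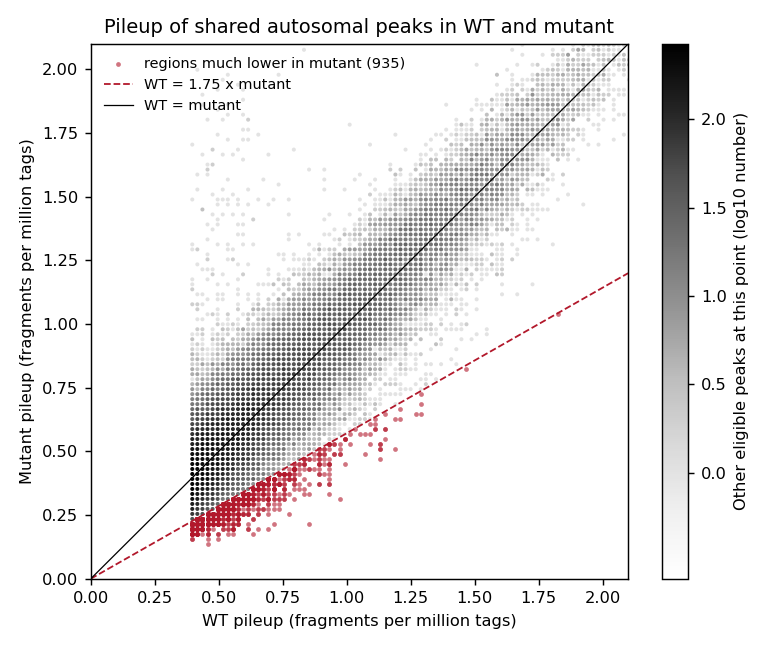
Pileup per 1000000 tags in WT (x axis) and mutant (y axis) for the 935 mutant-low regions (red points) and for the other eligible peaks (grey points, darker where more peaks share a position; axes end at 2.1). The red points fill the band under the dashed line of the 7/4 threshold, and 95% of them have a WT pileup of 0.933 or less.

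The peaks were also narrower and ranked lower in the mutant list. The median WT peak spanned 278 bp and its mutant partner 197 bp, and the mutant peak was the wider of the pair in 178 of 935 regions (19.04%), against 49.1% of all eligible pairs. Median fold enrichment over local background was 8.35 in WT and 4.72 in mutant. Within-list rank, where 100 is the strongest peak by q-value, had a median of 77.7 in WT and 42.3 in mutant. Summits were near each other, as in eligible peaks generally, with a median distance of 26 bp between WT and mutant summits and 901 of 935 pairs (96.4%) within 150 bp, against a median of 22 bp and 94.1% over all eligible peaks. Of the 361 peaks taken by the reversed rule 39.6% had their summits within 150 bp of each other, and their median summit distance was 451 bp.

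Counting error alone is wide at this depth. For the median pileups of 27 and 14, exact Poisson 95% intervals were 17.8 to 39.3 and 7.65 to 23.5, and the exact interval of their ratio per tag was 0.989 to 4.03. The region with the highest ratio had an interval of 2.01 to 8.51, and the tallest region one of 1.24 to 2.51. The regions were chosen on these same counts, so the intervals do not test whether the mutant was lower. Fragments amplified by PCR are not independent molecules, so these intervals cover counting error only.

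None of the 12 highest ratios was found within 1 kb of a transcription start site (TSS). In an intron of Gm45341 on chromosome 8 (50180755 to 50181285) WT pileup was 43 and mutant pileup 11, a ratio of 3.96, with a het pileup of 16. Het pileups here and below are raw counts from fewer tags and a longer extension, and they do not order the genotypes. An intergenic region on chromosome 13 (3258514 to 3258924) had 32 in WT, 9 in mutant and 17 in het, a ratio of 3.60. Lrrtm4, a postsynaptic adhesion protein that organizes excitatory synapses, held the next region in an intron on chromosome 6 (80750868 to 80751164), with 35 in WT, 10 in mutant and 30 in het. Of the 12 regions with the highest ratios, 5 were intergenic, 6 lay in introns and 1 in an exon. The exonic one was in Ptprk, a receptor-type tyrosine phosphatase that binds itself between neighbouring cells, at 28465744 to 28466095 on chromosome 10, with 49 fragments in WT, 16 in mutant and 36 in het.

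The tallest regions had smaller ratios. The highest WT pileup was found in an intron of Csmd3, a large transmembrane protein with a role in dendrite development, on chromosome 15 (48618586 to 48619144). Its pileup was 92 in WT, 53 in mutant and 100 in het, a ratio of 1.76. An intron of the non-coding gene A330069K06Rik had 74 in WT, 42 in mutant and 72 in het. The other 6 of the 8 tallest regions had WT pileups of 61 to 65 and ratios of 1.78 to 1.99, and 5 of the 6 were intergenic, the remaining one lying in an intron of Ostf1.

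Regions near the threshold are given to show its scale. Just inside it stood introns of Git2 and Egfr, an exon of Trrap and a site inside Cntn2, with ratios of 1.753 to 1.755. Cntn2 encodes an adhesion protein of young granule neurons. The summit of that site, at 132523270, was 0.123 kb from an annotated transcript start. The gene itself, on the minus strand, begins at 132543256. Cntn2 had 26 fragments in WT, 15 in mutant and 26 in het. Just outside it, 4 peaks had 38 fragments in WT and 22 in mutant, a ratio of 1.749, among them an intron of Xrcc4 and an intergenic site 23.8 kb from the start of Snap25. A difference of 1 mutant fragment would have moved each of these across the threshold.

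Position in the genome was not used to choose the regions, and they lay at promoters less often, and between genes more often, than eligible peaks as a whole. A TSS lay within 1 kb of 38 of the 935 regions (4.06%, Wilson 95% CI 2.98 to 5.53%), against 28.3% of eligible peaks. Introns held 376 regions (40.2%, 37.1 to 43.4%) against 35.2%, and intergenic DNA held 488 (52.2%, 48.99 to 55.4%) against 32.6%. Read the other way, 0.226% of eligible promoter peaks, 1.80% of intronic peaks and 2.52% of intergenic peaks were mutant-low. These intervals cover counting error over peaks only, and neighbouring peaks are not independent. Eligible promoter peaks were also taller than other eligible peaks, since TSS peaks made up 59.5% of other eligible peaks with a WT pileup of 50 or more and 13.98% of those with 20 to 24. Within the band of 20 to 24, 3.37% of the mutant-low regions were at a TSS, so the lower share was seen at matched WT height.

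**Figure D2:**
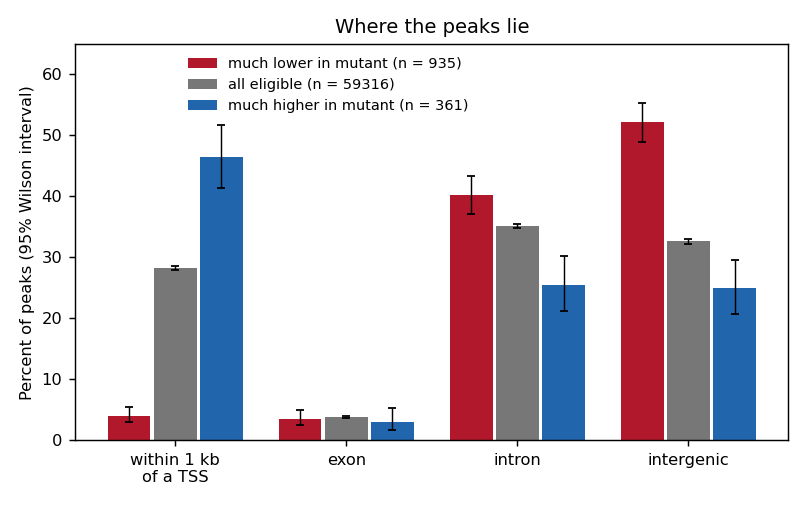
Percent of peaks (y axis, with Wilson 95% intervals) whose WT summit lies within 1 kb of a TSS, in an exon, in an intron or between genes, for the mutant-low regions (red), all eligible peaks (grey) and the 361 peaks taken by the reversed rule (blue). Mutant-low regions have 4.06% at a TSS and the reversed set 46.5%, on either side of the 28.3% of eligible peaks. The reversed set kept the pileup floor on WT and is not an equal counterpart.

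Distances to genes were long. The median distance to the nearest TSS was 43.6 kb, and 452 regions (48.3%, 45.2 to 51.5%) were more than 50 kb from any TSS, against 20.6% of eligible peaks. More than 100 kb separated 33.3% of the regions from a TSS, against 10.8%. No gene was assigned to 49.8% of the regions, counting the gene body with 5 kb upstream and 1 kb downstream, against 28.97%. Where a protein-coding gene was assigned, it was usually a long one, and 296 of 403 such regions (73.4%, 68.9 to 77.5%) were in genes longer than 100 kb, against 46.2% of eligible peaks in genes. Among distal peaks the shares were 76.5% and 61.8%. Counted over all regions, with those outside genes included, 31.7% lay in a protein-coding gene over 100 kb against 29.6% of eligible peaks, and 31.9% against 32.3% among distal peaks, since fewer of the regions were in a gene at all.

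Few promoters were among the mutant-low regions. Of the 38 at a TSS, 24 belonged to protein-coding genes and 14 to long non-coding genes (36.8%), whereas long non-coding genes supplied 10.8% of eligible TSS peaks. Agtpbp1, a carboxypeptidase that shortens tubulin tails and whose loss causes Purkinje cell degeneration, had 39 fragments in WT, 21 in mutant and 35 in het. Cdkn1a, which encodes the cell cycle inhibitor p21, had 37 in WT, 17 in mutant and 24 in het, and its summit was 0.023 kb from the TSS on chromosome 17 (29093634 to 29093831). Slf1 and Akt2 had summits 0.022 and 0.076 kb from a TSS. Akt2 showed 31 fragments in WT, 16 in mutant and 64 in het, where the overlapping het peak (27604588 to 27605853 on chromosome 7) was much wider than the WT peak (27605649 to 27605793). Bcl7b, Aldoart2, Sidt1 and Olfr1342 completed the 8 tallest, with WT pileups of 30 to 36 and mutant pileups of 15 to 19.

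Base composition differed as well. The 300 bp around the WT summit had a median GC content of 46.7% in mutant-low regions and 52.3% in eligible peaks. No CpG occurred in 10.6% of the regions (8.77 to 12.7%) against 3.45%. In windows of 35 to 40% GC, 5.65% of eligible peaks were mutant-low (4.70 to 6.77%), in windows of 45 to 50% GC 2.23%, and above 60% GC 0.113% (0.0672 to 0.189%). The reversed set showed no such fall, at 0.524 to 0.881% in all of these bands. That set kept the pileup floor on WT and is not an equal counterpart. Repeat-masked sequence covered a mean of 12.4% of the windows against 8.78%, and 44 regions (4.71%) were at least 50% masked, against 1.57%. GC content differs between promoters and distal DNA and can shift library yield, and whether amplification had a part was not tested.

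E-boxes with the centre of CAGATG were the most frequent of the motifs searched in the regions. To keep promoters out of the comparison, the 897 mutant-low regions more than 1 kb from a TSS were set beside the 41630 other distal eligible peaks. CAGATG, read on both strands, occurred in 494 of 897 (55.1%, Wilson 95% CI 51.8 to 58.3%) against 42.5%, and in 35.2% of all 59316 eligible peaks. CATATG, which is its own reverse complement, occurred in 156 (17.4%, 15.1 to 20.01%) against 8.38%, and in 6.68% of all eligible peaks. CAGCTG, also its own reverse complement, went the other way with 29.9% (26.97 to 33.0%) against 34.3%. At least 1 of CAGATG and CATATG was present in 64.9% of distal regions against 47.2%, and 17.4% against 10.3% held 2 or more CAGATG.

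Shares of the E-boxes were also taken at a similar GC content. Among distal windows of 35 to 45% GC, a band chosen after the values were seen, CAGATG occurred in 53.5% against 41.8%, CATATG in 19.9% against 11.8% and CAGCTG in 24.5% against 22.1%. The shares also changed below the threshold, across eligible peaks that the rule did not take. CAGATG was found in 33.9% of distal peaks with a ratio under 0.75, in 45.4% in the band that starts at 1, in 56.4% in the band that starts at 1.5, just short of the threshold, and in 54.0% from 2 upwards. CATATG went from 5.99% under 0.75 to 14.8% in the band from 1.5 and 19.1% from 2 upwards. These shares describe sequence against a measured ratio across peaks of 1 pair of pooled lists. The windows are centred on the WT summit, and at low ratios the mutant summit can lie outside them. In the reversed set, promoters included, the median distance between WT and mutant summits was 451 bp. The part of this in the low-ratio shares was not tested.

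**Figure D3:**
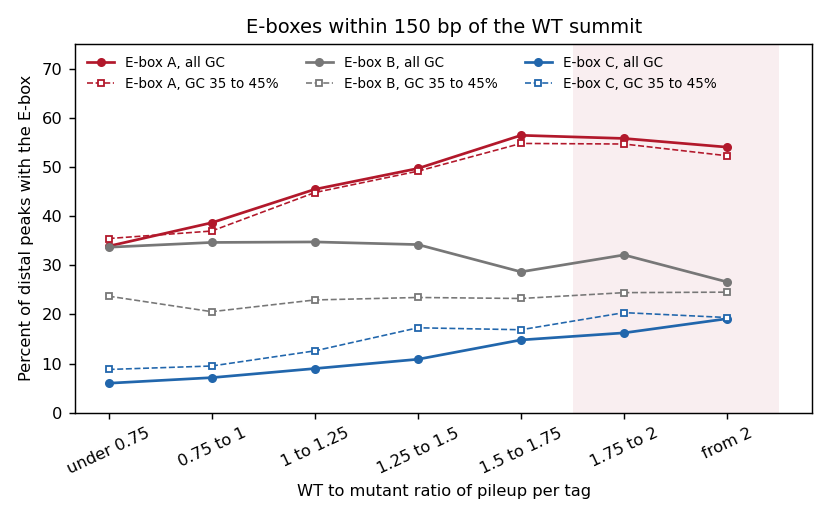
Percent of distal eligible peaks (y axis) whose 300 bp around the WT summit hold an E-box, by the WT to mutant ratio of pileup per tag (x axis, shaded for the mutant-low regions). E-box A is CAGATG, B is CAGCTG and C is CATATG, and dashed lines are windows of 35 to 45% GC. The lines for A and C are higher at high ratios, and the dashed line for B stays between 20.5% and 24.5%.

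Positions of the matches were nearer the summit in the regions. Within 50 bp of it lay 62.3% of CAGATG matches in mutant-low regions and 53.8% in other distal peaks. The same shares were 58.6% and 45.7% for CATATG and 53.8% and 52.3% for CAGCTG. When all 10 E-box centres were counted, a step added after the first 3 were seen, CAAATG occurred in 26.1% against 21.02% of distal peaks and CACATG in 28.0% against 22.3%. Within 35 to 45% GC, CAAATG was at 28.1% against 29.2% and CACATG at 27.5% against 23.7%.

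Other motifs were less frequent in the regions or differed little. A short form of the site of CTCF, the insulator protein, AGGNGGC, occurred in 17.2% of distal regions (14.8 to 19.8%) against 27.2%, and in 9.79% against 17.7% within 35 to 45% GC. The GC box GGGCGG occurred in 5.24% against 9.98%, and in 1.53% against 2.24% within that band. The AP-1 site TGANTCA, bound by activity-induced factors, occurred in 9.03% against 9.27%, the NFI site TTGGCA in 32.1% against 33.0%, the Sox site CATTGT in 15.1% against 14.1% and the TEAD site GGAATG in 15.8% against 16.0%. The Zic site CAGCAGG was at 15.4% against 18.4%, but at 11.0% against 11.1% within the band. A match is a run of letters and says nothing of which factor was bound.

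The het list was not used by the rule and gave a separate reading. A het peak overlapped 802 of the 935 regions (85.8%, 83.4 to 87.9%) against 95.01% of eligible peaks. Where a het peak existed, its median pileup was 0.760 per 1000000 tags against 1.33 over eligible peaks. Peak height in WT is tied to height in het, so the comparison was repeated within bands of WT pileup.

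In the lowest band, 20 to 24 fragments in WT, a het peak was present at 72.1% of 326 regions (67.0 to 76.7%) against 87.8% of other eligible peaks. The difference was smaller where WT peaks were taller, with 89.3% against 93.9% at 25 to 29, 94.3% against 97.4% at 30 to 39 and 97.8% against 99.3% at 40 to 49. The median het pileup of the regions was 0.760 times that of other peaks in the lowest band and 0.610 times in the highest, at 50 or more. The corresponding mutant ratios, fixed by the rule, were 0.478 and 0.454. In the highest band the regions were also lower in WT, at 0.905 times the other peaks, while in the other bands the WT medians were 0.985 to 1.01 times.

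**Figure D4:**
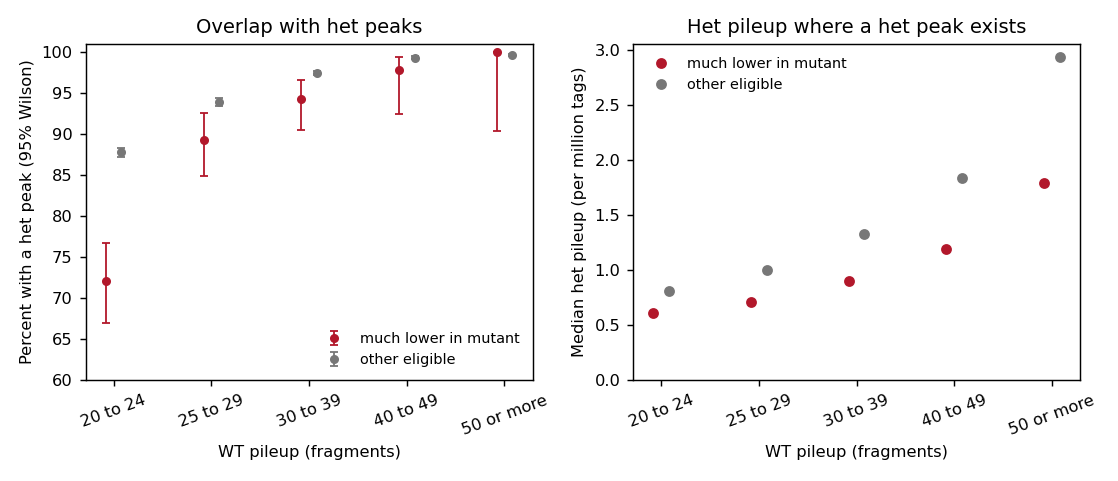
Left, percent of peaks that overlap a het peak (y axis from 60%, Wilson 95% intervals), and right, median het pileup per 1000000 tags (y axis), by WT pileup (x axis) for mutant-low regions (red) and other eligible peaks (grey). Red points are lower than grey points in all bands of the right panel and in 4 of 5 bands of the left panel, with 100% against 99.7% in the highest band.

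Bands of WT pileup share the WT list with the rule, so the het values in them are not independent of it. Bands of mutant pileup, added after the first were seen, share the mutant list instead. In these bands the median het pileup of the regions was 1.05 times that of other eligible peaks at 10 to 14 fragments, 1.18 times at 15 to 19, 1.38 times at 20 to 24 and 1.5 times at 25 to 29. The bands did not fully match mutant height, since the mutant medians of the regions were 0.857, 0.889, 0.955 and 0.963 times those of other peaks. The WT medians there were 1.10, 1.41, 1.74 and 1.88 times those of other peaks. Since the regions were chosen for high WT and low mutant counts, no order of the genotypes is drawn from these values. Het also differs in alignment and extension, which cannot be told apart from genotype. Among 128 regions with a WT pileup of 40 or more, 2 had no het peak, 1 of them in an intron of Gpm6a with 46 fragments in WT and 26 in mutant and the other intergenic on chromosome 6 with 40 and 16, in a window that was 100% repeat-masked.

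Genes holding the regions were tallied next. At least 1 mutant-low region was assigned to 375 protein-coding genes, 34 held 2 or more and 7 held 3 or more. Ptprd, a receptor-type phosphatase of presynaptic terminals, held 4 among 39 eligible peaks, all in introns, with WT pileups of 22, 25, 32 and 33 and mutant pileups of 10, 11, 12 and 14. Dcc, the receptor for the guidance cue netrin, held 3 of 14, with WT pileups of 32, 28 and 22 against 12, 12 and 10 in mutant, and the median ratio of its 14 eligible peaks was 1.28. Ptprk held 3 of 26, Erbb4, a neuregulin receptor, 3 of 20, Cntnap2, an axonal adhesion protein, 3 of 37, Nrxn3, a presynaptic neurexin, 3 of 59, and Galntl6, of the enzyme family that starts O-linked glycosylation, 3 of 24. Csmd3 held 2 of 12, the second with 42 in WT, 17 in mutant and 22 in het. These are long genes, from 523 kb for Ptprk to 2271 kb for Ptprd. Most peaks of each gene were outside the rule, and the ratios of the 39 eligible Ptprd peaks ran from 0.747 to 2.70, with 24 of them over 1.

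Genes that the study lists as lower by RNA-seq in homozygous mutant GNPs (Chd7-activated genes, 142 matched to the annotation and 9 not) were examined as a group. They held 907 eligible peaks, of which 30 in 21 genes were mutant-low (3.31%, Wilson 95% CI 2.33 to 4.68%) against 1.58% of all eligible peaks, and 5 were taken by the reversed rule. Among distal peaks alone the share was 3.98% against 2.11%. In the genes listed as activated by Chd7 and Top2b, a topoisomerase that relaxes DNA in long neuronal genes, 197 were matched and 6 were not. The study found these genes by microarray in cultured postmitotic granule neurons, not in the freshly isolated GNPs used for ATAC-seq. Per the study, these genes are a subset, those that also increase as granule cells differentiate, and the longer list behind it was not analysed here. Of its eligible peaks, 58 of 1982 in 42 genes were mutant-low (2.93%, 2.27 to 3.76%), or 3.53% of distal ones. The lists shared 35 genes, and 19 regions lay in genes of both. These lists were drawn from Chd7 mutant cells by the study and are not independent of the genotype compared, and 69 of the 935 regions fell in either.

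**Figure D5:**
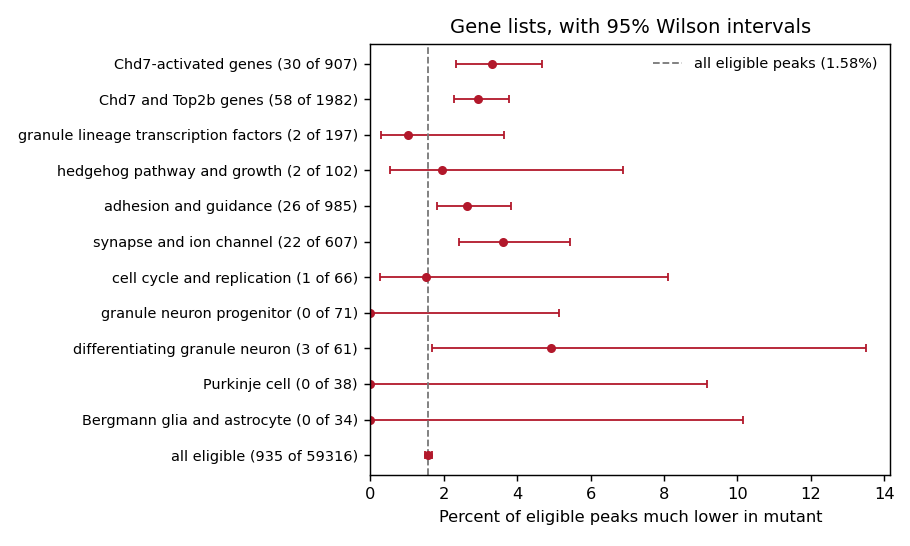
Percent of each list's eligible peaks that are mutant-low (x axis, points with Wilson 95% intervals) for lists with 30 or more eligible peaks, with the number of such regions and of eligible peaks in brackets. The dashed line is the 1.58% of all eligible peaks, and the lower ends of the intervals of 5 lists lie to the right of it. TSS peaks make up 14.1% of the adhesion and guidance list and 28.3% of all eligible peaks, so the line is unmatched for promoters. The differentiating granule neuron list rests on 3 regions. The adhesion and guidance list and the synapse and ion channel list include genes that the study named for lower mutant peaks.

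Regions in the Chd7-dependent genes were modest in size. Alcam, an immunoglobulin adhesion protein of growing axons, held an intronic region on chromosome 16 (52279996 to 52280781) with 60 fragments in WT, 32 in mutant and 55 in het, 1 of 10 eligible peaks in the gene. The region near Cadm3, another adhesion protein, had 56, 30 and 57. Lzts1 had 47, 17 and 36 in an intron. Bmp5, a secreted ligand of the BMP family, held 2 regions among 4 eligible peaks, with 32 fragments in WT, 15 in mutant and 32 in het at one and 20, 10 and 17 at the other. Grik2, a kainate receptor subunit, held 2 of 20, Nkain3 2 of 18, Gpm6a, a neuronal membrane glycoprotein, 2 of 12 and St18, a zinc finger factor, 2 of 14. In an intron of Cerkl a region with 40, 22 and 36 fragments lay 13.7 kb from the start of Neurod1, and none of the 5 eligible peaks assigned to Neurod1 itself was mutant-low. Some genes known from the granule lineage held none, with 0 of 28 eligible peaks in Reln, a secreted guide of neuron migration, 0 of 14 in Gap43, 0 of 14 in Unc5c, 0 of 8 in Cadps2, 0 of 20 in Chd7 itself and 0 of 2 in Atoh1. Fstl5 had 0 of 4. Of all eligible peaks 1.58% were mutant-low, so a count of 0 is ordinary for a gene with this few peaks. By a comparison of replicates, the study reported lower mutant peaks at Cadps2, Nkain3, Reln, Bmp5 and Fstl5. Peaks absent from the mutant list, under 20 WT fragments or with a ratio under 7/4 could not be counted here. These zeros therefore do not mean unchanged accessibility. The median ratio of eligible peaks was 0.836 in Cadps2, with 1 of 8 over 1, and 0.870 in Unc5c, with 2 of 14 over 1. Most shared peaks of these 2 genes were thus not lower in mutant. The median was 1.06 in Reln, with 18 of 28 over 1, 1.05 in Gap43, with 10 of 14, and 1.07 in Fstl5, with 3 of 4.

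Groups of genes by role are set beside 1.58% of all eligible peaks and 2.11% of distal ones. Of 985 eligible peaks in adhesion and guidance genes, 26 in 18 genes were mutant-low (2.64%, 1.81 to 3.84%), or 2.96% of distal peaks, among them Dcc, Nrxn3, Cntnap2, Robo2, the receptor for Slit cues, and Epha3, an ephrin receptor. Of 607 in synapse and ion channel genes, 22 in 17 genes were (3.62%, 2.41 to 5.43%), or 4.23% of distal peaks, among them Grm8, a metabotropic glutamate receptor, at 34 in WT, 14 in mutant and 22 in het. Granule lineage transcription factors had 2 of 197 (1.02%), in introns of Etv1 (42, 23 and 39) and Nfia (35, 18 and 27). Hedgehog pathway and growth genes had 2 of 102, in introns of Smo and Sfrp1 with 22 in WT and 12 in mutant each, and cell cycle and replication genes 1 of 66, in Cdkn1a. The members of these lists overlap with the Chd7-dependent lists, and adhesion and synapse genes are long. The synapse and ion channel list includes Cadps2, Nkain3, Bmp5 and Fstl5, and the adhesion and guidance list includes Reln. The study named these genes for lower mutant peaks in its own ATAC-seq, so neither list is independent of these data. Nkain3 and Bmp5 each held 2 of the 22 regions.

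Counts in cell type markers are read against the 1.58% of all eligible peaks. Progenitor markers had 0 of 71 eligible peaks, which allows a share of up to 4.23% by the limit of 3 counts for a zero and of 5.13% by the upper Wilson bound. Markers of differentiating granule neurons had 3 of 61 (4.92%, 1.69 to 13.5%), in Cntn2, Etv1 and Nfia. In the 8 lists for other cell types of the cerebellum and its coverings or blood, 0 of 159 eligible peaks were mutant-low, which allows up to 1.89% by the limit of 3 counts and 2.36% by the Wilson bound. Both of these zeros allow the share of all eligible peaks. In pooled cells, fewer cells of a type and less open chromatin per cell cannot be told apart.

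The regions were spread over all 19 autosomes. The share of eligible peaks that were mutant-low ran from 0.833% on chromosome 11 (0.581 to 1.19%) to 2.23% on chromosome 12 (1.74 to 2.87%), with 2.11% on chromosome 4, which carries Chd7. Of neighbouring regions, 19 pairs were within 10 kb and 67 within 100 kb of each other. The same counts were not made for sets of other eligible peaks, so they do not show whether the regions cluster. One pair more than 10 kb apart lay in Erbb4 on chromosome 1, at 68839494 to 68839736 and 68866224 to 68866993. Pileup was 32 in WT, 18 in mutant and 30 in het at the first and 35, 19 and 29 at the second.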

How the data were processed

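ATAC-seq libraries of P7 GNPs (3 WT, 3 mutant, 2 het) were pooled per genotype by the authors, who trimmed reads with Trim Galore 0.4.1, aligned them to mm10 with STAR 2.5.0b or Bowtie 1.0.0, marked duplicates with Picard 1.139 and called peaks with MACS2 2.1.0.20150731 at a q-value cutoff of 0.05, per the submitters' processing notes and the file headers. The headers show STAR alignments and no read shift for WT and mutant, and Bowtie alignments with a shift for het. The study's methods describe Bowtie and the shift for all libraries, so the headers were followed here. The authors deposited a pileup signal per peak, not scaled to depth, a fold enrichment, which is a ratio to local background, and a -log10 q-value. Replicate values were not analysed here, so no test was run.

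Pileup was divided by the tags after filtering in each header. Ranks are percentages of a list's peaks at or below a -log10 q-value. Peaks were placed by WT summit with GENCODE release M21 on the assigned order TSS within 1 kb, exon, intron and intergenic, and assigned to a gene when they overlapped its body, 5 kb upstream or 1 kb downstream. All eligible peaks lay inside the 19 autosomes of the reference. Motifs were searched on both strands in 300 bp around the WT summit. Shares have Wilson 95% intervals. The region rule was tested on simulated peaks. The regions, gene lists and motifs were chosen with earlier results of these data known. Named regions were the 12 with the highest ratio, the 8 tallest, the 20 tallest in study-listed genes, the 8 tallest at protein-coding TSSs, those nearest the threshold, the 5 tallest per gene list and the 8 genes with most regions, where the last place was tied at 2 regions and went to the gene with the highest summed WT pileup, and other regions of a named gene were chosen after their values were seen. Python 3.11.15, numpy 2.4.6, pandas 2.3.3, scipy 1.17.1 and matplotlib 3.10.9 were used. Alternatives covered the ratio and pileup thresholds, overlap, scaling, fold enrichment, TSS distance and gene assignment.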

Additional observations from a re-analysis of the deposited data

How the results depend on the processing

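No paired analysis was possible because each genotype is 1 pooled list without replicate columns, and leaving out a library was not run for the same reason. Of 51 alternative values, 32 stayed within 1.5 times the reported value for a count of regions, or inside the 95% interval of the reported share or median. The number of mutant-low regions (935) depended on the thresholds, at 2528 with a ratio of 1.5, 373 with a ratio of 2, 356 with a WT pileup of 30 or more and 374 with the ratio of fold enrichment. The share with a het peak (85.8%) was 88.3% at a ratio of 1.5, 95.8% at a pileup of 30, where all eligible peaks had 98.7%, and 81.8% with fold enrichment. Median het pileup per 1000000 tags (0.760) was 0.808 at a ratio of 1.5, 0.711 at 2, 1.03 at a pileup of 30 and 0.695 with fold enrichment. The share at a TSS (4.06%) was 5.97% at a ratio of 1.5 and 12.9% within 5 kb of a TSS, against 41.0% of eligible peaks. Median GC (46.7%) was 48.0% at a ratio of 1.5, 45.7% at 2, 46.2% at a pileup of 30 and 46.0% with fold enrichment. The share of the regions in Chd7-activated genes (3.21%) was 4.60% by nearest TSS, against 1.64% of eligible peaks. The share with CAGATG (55.1%), an alternative set added after seeing the data, was 59.3% at a pileup of 30, against 34.3% of eligible peaks. Other causes of these shifts than the changed choice were not tested. Depth limits the ratios, since the median region rests on 27 WT and 14 mutant fragments.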
